A study of Mus musculus with 102 samples.

Results

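H3K27ac, acetylation of histone H3 at lysine 27, was described at 42384 regions of mouse embryonic stem (ES) cell chromatin, of 67697 regions marked by H3K4me1, H3K4me3 or both. A region was counted when the deposited region table listed an H3K27ac log2 enrichment for it, and all regions of the table served as the background. The series asks which chromatin proteins share sites with H3K4me1 and which depend on it. It was profiled by chromatin immunoprecipitation with sequencing (ChIP-seq), and 102 libraries are labelled in all. The H3K27ac values come from ES cells of strain 129/Ola, for which the labels give no altered gene. These cells were grown on feeders and then passaged 2 times without them before fixation. H3K27ac was precipitated with an Active Motif antibody in 2 libraries, labelled replicates 1 and 4. Set beside them were 3 H3K4me1 and 2 H3K4me3 libraries of the same cells and libraries of 17 chromatin factors. A further comparison used R1 ES cells of strain 129SV, grown on mouse embryonic fibroblast feeders. They were either labelled MLL3/4 double catalytic dead, that is with both enzymes catalytically inactive, or wild-type, with 2 libraries per H3K4 mark and line. Nothing in the labels says that replicates were separate cultures.

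The table holds 1 value per region and factor, so the error between libraries and the sequencing depth are unknown and no test between groups was made. Intervals in brackets are 95% Wilson intervals and cover counting error only, and they are too narrow to the extent that neighbouring regions are not independent. The smallest value listed for any factor was a fold of 1.5, which is a log2 of 0.58. A region without listed H3K27ac therefore lies below that limit or was not measured, and is called not listed. The tables give positions without gene names, so the identity of the cells could not be checked against marker genes.

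Acetylation of H3K27, placed mainly by the acetyltransferases p300 and CBP, is found at active promoters and enhancers and is removed by histone deacetylases. H3K4me1 is the typical mark of enhancers, where MLL3 and MLL4 are its main methyltransferases, and H3K4me3 that of promoters. Enhancers with H3K4me1 but little H3K27ac are commonly called poised or primed. Many promoters carry H3K4me3 at their centre and H3K4me1 at their flanks, so a region with both marks is often a promoter with its flanks, and can also be a strong enhancer.

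H3K27ac was listed at fewer regions with H3K4me1 only than at regions with H3K4me3. It was listed at 19417 of 41819 H3K4me1-only regions (46.4%, 46.0 to 46.9), 16267 of 18425 regions with both marks (88.3%, 87.8 to 88.7) and 6700 of 7453 H3K4me3-only regions (89.9%, 89.2 to 90.6), against a background of 62.6% over all regions. On each of the 19 autosomes the H3K4me1-only share was the lowest of the 3. It ranged from 35.02 to 55.8% there, against 79.6 to 92.4% with both marks and 85.7 to 92.0% with H3K4me3 only. The H3K4me3-only share was above that of both marks on 13 of 19 autosomes, so the order of these 2 close shares was not the same on each. Whether it varied beyond counting error was not tested.

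The classes with H3K4me3 differed in the level of H3K27ac more than in its presence. Among listed regions the median log2 enrichment was 1.19 at H3K4me1-only regions (quartiles 0.97 to 1.49), a fold of 2.28. With both marks it was 1.31 (quartiles 1.08 to 1.65), a fold of 2.49, and with H3K4me3 only 1.74 (quartiles 1.30 to 2.28), a fold of 3.34. H3K4me3-only regions had the highest median on 19 of 19 autosomes, with a range of 1.59 to 1.90, and H3K4me1-only regions the lowest, 1.13 to 1.26. The quartiles of the classes overlap widely.

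A log2 enrichment of 1 or more was reached by 33.0% of H3K4me1-only regions, 72.9% of regions with both marks and 81.4% of H3K4me3-only regions, with 49.2% over all regions as the background. At 2 or more the shares were 3.26%, 10.3% and 33.1%, against 8.45% over all regions. At 3 or more they were 0.151% (63 regions), 0.787% (145 regions) and 5.46% (407 regions), against 0.908% over all regions. H3K4me3-only regions thus made up 66.2% of the 615 regions at 3 or more and 11.0% of all regions. Both classes with H3K4me3 were thus listed about equally often and parted towards the higher values. Values run without a break across the bin edges, from 2.9987 to 3.00001 at the highest one.

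**Figure D1:**
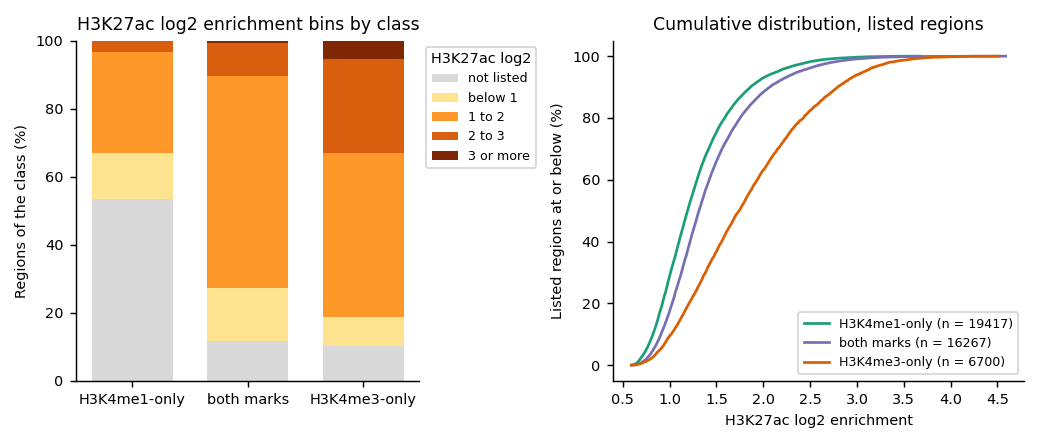
Left, percent of the regions of each H3K4 class by H3K27ac log2 enrichment bin; right, cumulative percent of listed regions against H3K27ac log2 enrichment for each class. The part that is not listed is largest at H3K4me1-only regions (53.6%), and the H3K4me3-only curve lies to the right of the other 2, with a median of 1.74.

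Single regions show the range. The highest value of the table was 4.59, a fold of 24.0, at chr7:56602929-56603196 (mm9), a region of 268 bp with both marks and 7 factors. The next among regions with both marks were chr9:72487511-72487899 at 4.31, with 16 of the 17 factors, and chr2:30924404-30925583 at 4.13, with 14. Among H3K4me3-only regions the highest were chr6:72848590-72850955 at 4.52 with 15 factors, chr4:133368518-133371081 at 4.27 with 14 factors and chr1:30929557-30931135 at 4.17 with 16 factors. The 3 highest H3K4me1-only regions lay between 3.50 and 3.68. The third of them, chr8:37610218-37610607 at 3.50, had 3 factors, the ATPases RUVBL1 and RUVBL2 and the PHD and RING finger protein PHRF1. The most acetylated H3K4me3-only regions were thus 1579 to 2564 bp wide and rich in factors, while those of the other classes included narrow ones.

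The widest regions without listed H3K27ac mostly had few or none of the factors, but they were picked for their width. The 3 widest of the H3K4me1-only class measured 11831 to 12110 bp and had none of the 17 factors. The 3 widest with both marks, the widest at chr17:24266721-24279438 with 12718 bp, also had none. With H3K4me3 only, chr14:99697858-99708198 measured 10341 bp and had the cohesin subunit SMC3 alone, at a log2 of 1.20. Another of them, chr11:48666423-48672083, had 7 factors, led by the chromatin remodelling ATPase SNF2H at 1.21. A wide region with a factor number near the class mean of 7.81 thus need not have listed H3K27ac. Over all regions, with or without listed H3K27ac, the widest also had fewer factors. At H3K4me1-only regions the mean number was 2.29 at 4000 bp or more and 3.85 below 500 bp. It was 7.63 and 8.82 with both marks, and 5.84 and 6.99 with H3K4me3 only. The part of width in the low factor number of the named wide regions was not tested.

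Wider regions had H3K27ac more often in every class. The median width was 753 bp with and 413 bp without listed H3K27ac at H3K4me1-only regions. It was 1176 and 538 bp for both marks, and 1570 and 771 bp for H3K4me3 only. Below 500 bp, H3K27ac was listed at 38.2% of H3K4me1-only regions, 80.2% of regions with both marks and 71.5% of H3K4me3-only regions. At 4000 bp or more it was listed at 77.3%, 96.5% and 96.4%. A wider region has more bases in which a signal can be called, and the part of this in the shares was not tested.

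The median level was higher at each wider bin in 1 class only. At listed H3K4me3-only regions the median log2 was 1.43 below 500 bp, 1.59 from 500, 1.73 from 1000, 1.89 from 2000 and 2.03 from 4000 bp. At H3K4me1-only regions the same bins gave 1.19, 1.15, 1.17, 1.24 and 1.33. With both marks they gave 1.36, 1.24, 1.23, 1.33 and 1.60, so the narrowest and the widest regions had the higher medians. High values were more frequent at the widest regions of every class. Of all regions, listed or not, 2.09% of H3K4me1-only ones below 500 bp reached a log2 of 2, and 10.4% at 4000 bp or more. The same shares were 7.38% and 26.0% with both marks, and 14.2% and 50.0% with H3K4me3 only. Between regions of 1000 to 2000 bp the classes still differed, with 51.6% (50.6 to 52.7), 91.0% (90.2 to 91.8) and 93.1% (92.1 to 94.0) listed in the order H3K4me1-only, both marks, H3K4me3-only. There the medians of H3K4me1-only regions and of those with both marks were close, 1.17 and 1.23.

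**Figure D2:**
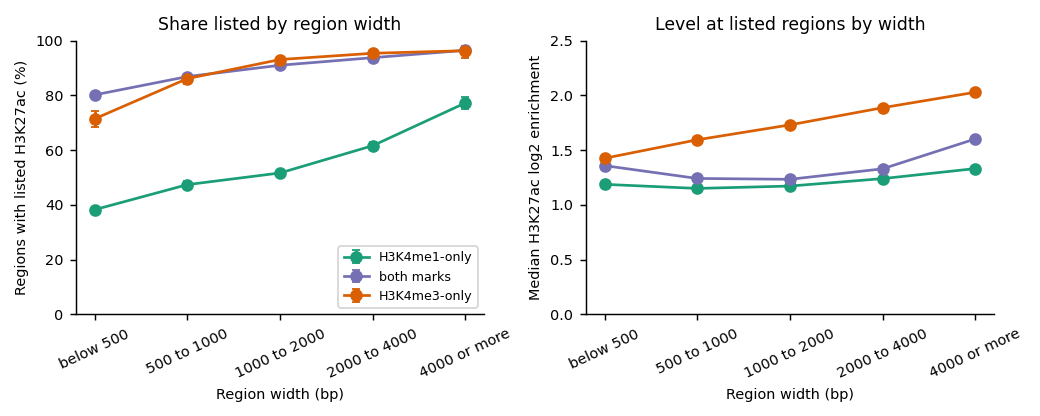
Left, percent of regions with listed H3K27ac (bars, 95% Wilson interval) and right, median H3K27ac log2 enrichment of listed regions, by region width in bp, for each H3K4 class. The share is higher at each wider bin in every class, and the level is higher at each wider bin with H3K4me3 only, from 1.43 to 2.03.

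Acetylated regions held more of the 17 factors. At H3K4me1-only regions the mean number was 2.17 without listed H3K27ac, 3.56 below a log2 of 1, 4.91 from 1 to 2, 5.08 from 2 to 3 and 6.51 at 3 or more. At H3K4me3-only regions the means over the same bins were 4.77, 6.18, 7.53, 9.25 and 11.2. With both marks they were 6.83, 8.50, 9.79, 9.56 and 10.2, so the number levelled off above a log2 of 1. Regions with both marks were wider from 2 to 3 than from 1 to 2, with medians of 2131 and 1099 bp. The part of width in this was not tested. The SD over regions within a bin was 2.40 to 3.95 factors, wider than most of the steps between bins. Regions with none of the factors made up 7.53% of H3K4me1-only regions from 1 to 2, against 30.8% of those without listed H3K27ac. None of the 615 regions at 3 or more was without a factor, against 8998 of all 67697 regions. Most of the 615 had H3K4me3, and regions without a factor were few in those classes at any level. They were 206 of 18425 regions with both marks and 197 of 7453 H3K4me3-only regions.

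Read the other way, the share of H3K4me1-only regions with listed H3K27ac was 19.7% (18.9 to 20.6) with no factor, 39.4% with 1 to 3, 61.1% with 4 to 6, 75.1% with 7 to 9, 83.6% with 10 to 12 and 87.7% (83.2 to 91.2) with 13 to 17. Width ran against this order: the median width was 1145 bp with no factor and 368 bp with 13 to 17. With many factors these regions approached the shares of the H3K4me3-bearing classes, which were 96.6% for both marks and 98.7% for H3K4me3 only at 13 to 17 factors. Even with no factor, H3K27ac was listed at 72.3% (65.9 to 78.0) of 206 regions with both marks and 64.0% (57.0 to 70.3) of 197 H3K4me3-only regions. These were wider than the H3K4me1-only regions with no factor, with medians of 4011.5 and 2321 bp against 1145 bp. The part of width in this class difference was not tested.

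Strong acetylation went with factor number, most steadily in H3K4me3-only and in H3K4me1-only regions. A log2 of 2 or more was found at 3.05% of H3K4me3-only regions with no factor, 13.1% with 1 to 3, 24.2% with 4 to 6, 33.4% with 7 to 9, 43.9% with 10 to 12 and 55.2% with 13 to 17. At H3K4me1-only regions the shares over the same groups were 0.849%, 2.38%, 4.69%, 5.97%, 7.50% and 11.1%. With both marks the share was 2.43% with no factor, 7.51% with 1 to 3 and 11.9% with 10 to 12. At 13 to 17 factors it was 10.2%, so this class differed mainly between no factor and some. Across listed regions, Spearman's rho of the H3K27ac level with factor number was 0.20, 0.085 and 0.32 for H3K4me1-only, both marks and H3K4me3-only. These regions share libraries and mapping, so rho is given as a description.

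**Figure D3:**
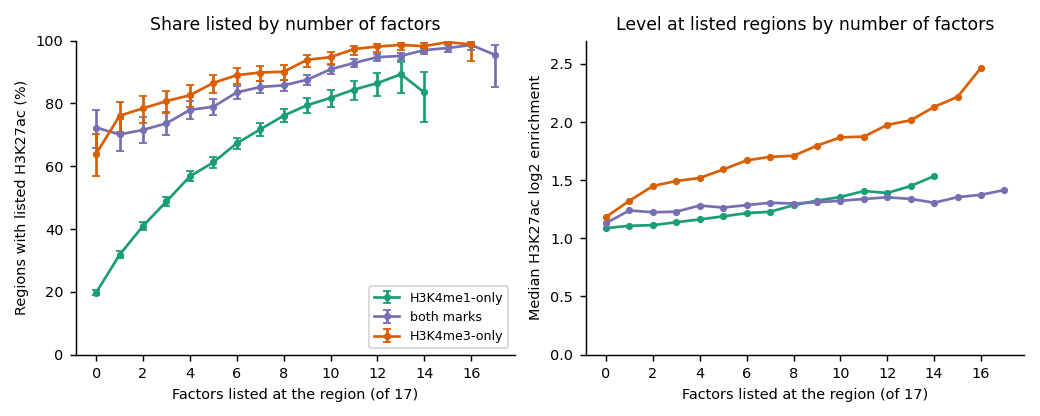
Left, percent of regions with listed H3K27ac (bars, 95% Wilson interval) and right, median H3K27ac log2 enrichment of listed regions, against the number of the 17 factors listed, for each H3K4 class and for numbers with at least 20 regions. The H3K4me1-only share starts at 19.7% with no factor, and the H3K4me3-only level reaches 2.47 with 16 factors while that of both marks stays between 1.13 and 1.42.

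The factors were then taken one complex at a time. At a log2 of 1 to 2, 16 of 17 factors were listed more often than where H3K27ac was not listed at H3K4me1-only regions, by a median of 15.5 percentage points, and 16 of 17 with both marks and 17 of 17 with H3K4me3 only. The exception was WSTF, a partner of the ISWI ATPase SNF2H, at 8.43% of H3K4me1-only regions from 1 to 2 against 8.86% of those not listed, and at 10.1% against 11.4% with both marks. Between the bin at 3 or more and that at 1 to 2 the classes parted. The share at 3 or more was higher for 17 of 17 factors with H3K4me3 only, by a median of 21.6 points. It was higher for 13 and lower for 4 at H3K4me1-only regions, and higher for 10 and lower for 7 with both marks.

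Mediator links enhancer-bound regulators to RNA polymerase II, and 3 of its subunits were measured. MED1 was listed at 12.4% of H3K4me1-only regions without listed H3K27ac, 17.5% below 1, 27.9% from 1 to 2, 34.9% from 2 to 3 and 57.1% (44.9 to 68.6) at 3 or more. MED12, of the kinase module, was listed at 11.7%, 15.5%, 21.5%, 23.4% and 41.3%. SUR2, the subunit also named MED23, was listed at 9.91%, 20.7%, 29.4%, 25.02% and 34.9% (24.3 to 47.2), so its share at 3 or more did not separate from that at 1 to 2 beyond counting error. With H3K4me3 only, MED12 had one of the largest differences, with 65.6% at 3 or more against 32.0% at 1 to 2, and SUR2 was listed at 66.1% (61.4 to 70.5) against 37.3% (35.7 to 38.9).

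The BAF subunits differed from each other. BAF155, a core subunit of the BAF remodelling complex, was listed at 5.26% of H3K4me1-only regions without listed H3K27ac, 8.88% below 1, 16.8% from 1 to 2, 32.8% from 2 to 3 and 42.9% at 3 or more. BRG1, the ATPase of the same complex, was listed at 9.41%, 13.04%, 18.4%, 17.01% and 28.6% (18.9 to 40.7). With both marks BAF155 was at 76.6% at 3 or more against 31.0% without listed H3K27ac, while BRG1 was at 32.4% against 24.98%. Each factor is compared with itself across bins, since listing may not be equally easy for different factors.

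RUVBL1 and RUVBL2, paired ATPases of the INO80, SRCAP and TIP60 complexes, were more frequent at each higher bin of H3K4me1-only regions. RUVBL2 was listed at 10.1%, 17.02%, 26.2%, 41.0% and 54.0% over the 5 bins from not listed to 3 or more, and RUVBL1 at 9.95%, 15.3%, 21.4%, 25.9% and 36.5%. With H3K4me3 only, RUVBL2 was listed at 95.1% of regions at 3 or more, against 48.1% of those without listed H3K27ac. Its level there also had the highest rank correlation with that of H3K27ac of any factor, rho 0.34 over 5725 regions.

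SMC3, of the cohesin ring, was listed at 18.998%, 27.3%, 33.0%, 38.0% and 49.2% of H3K4me1-only regions over the bins. With H3K4me3 only it had the largest difference of the 17, with 84.8% (81.0 to 87.9) at 3 or more against 49.3% at 1 to 2. SAP18, a small protein known from the SIN3 deacetylase complex and from splicing-associated complexes, was listed at 12.5%, 23.3%, 34.7%, 41.0% and 60.3% of H3K4me1-only regions. The size of these differences depends on how a factor is counted. With factors counted only at a log2 of 1 or more, the share at 3 or more minus that at 1 to 2 of H3K4me1-only regions was 7.65 percentage points for MED1 against 29.3 with every listed value. On the same scales it was 3.33 against 27.7 for RUVBL2, 9.53 against 26.1 for BAF155, 8.25 against 25.7 for SAP18, 7.06 against 19.8 for MED12 and 5.91 against 16.2 for SMC3.

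Another set was most frequent at intermediate acetylation. SSRP1, which forms the histone chaperone FACT together with its partner and was measured in 1 library, was listed at 9.36% of H3K4me1-only regions without listed H3K27ac, 27.4% below 1, 36.7% (35.9 to 37.6) from 1 to 2, 25.8% (23.5 to 28.2) from 2 to 3 and 23.8% at 3 or more. PHRF1 was listed at 13.1%, 27.7%, 38.0% (37.2 to 38.9), 28.2% (25.8 to 30.7) and 28.6%. PHF5A, a subunit of the splicing factor SF3B, was listed at 10.8%, 16.6%, 20.8% (20.1 to 21.5), 12.9% (11.2 to 14.9) and 6.35%. BAZ1A, the partner of SNF2H in the ACF remodeller, was listed at 10.7%, 18.4%, 24.9% (24.1 to 25.6), 15.9% (14.0 to 17.9) and 15.9%. For all 4 the intervals at 1 to 2 and 2 to 3 do not meet. Those of SUR2, 28.6 to 30.2 and 22.7 to 27.4, do not meet either, but its share was highest at 3 or more. In all, 7 of 17 factors were less frequent at 2 to 3 than at 1 to 2. Regions from 2 to 3 were wider, with a median of 1194 bp against 720 bp from 1 to 2. Wide regions of this class held fewer factors, and the part of width in these differences was not tested. The top bin holds 63 regions, and there the intervals of BAZ1A (8.86 to 26.8) and PHRF1 (18.9 to 40.7) reach those at 1 to 2.

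The same 4 factors were lower at 3 or more than at 1 to 2 with both marks, BAZ1A at 20.7% and 42.6%, PHF5A at 18.6% and 35.6%, PHRF1 at 56.6% and 72.2% and SSRP1 at 61.4% and 70.0%. With H3K4me3 only all 4 were higher at 3 or more, SSRP1 at 54.8% and 33.2%, PHRF1 at 54.3% and 36.8%, PHF5A at 37.6% and 18.6% and BAZ1A at 30.2% and 22.0%. Their direction at strong acetylation therefore went with the presence of H3K4me1 in the table.

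The remaining factors at H3K4me1-only regions were SNF2H, WSTF and the splicing factors. SNF2H was listed at 47.6% (35.8 to 59.7) at 3 or more against 38.9% from 1 to 2, a difference of 8.74 points that became 22.3 with factors counted at a log2 of 1 or more. The splicing factor SRSF1 was at 47.6% against 38.3%, and SRSF2 at 58.7% against 55.4%. For SRSF1 and SRSF2, as for SNF2H with every listed value, the values in these 2 bins did not separate beyond counting error. WSTF was listed at 17.5% (10.04 to 28.6) at 3 or more, which is 11 of 63 regions, against 8.43% (7.95 to 8.93) at 1 to 2. These intervals do not meet, but they cover counting error only, and WSTF was 1 of 17 factors looked at. The presence of a factor went with small differences in the H3K27ac level itself. Over 17 factors the median log2 with minus without the factor was 0.032 to 0.20 at listed H3K4me1-only regions and 0.078 to 0.46 with H3K4me3 only. With both marks it was -0.014 to 0.093.

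**Figure D4:**
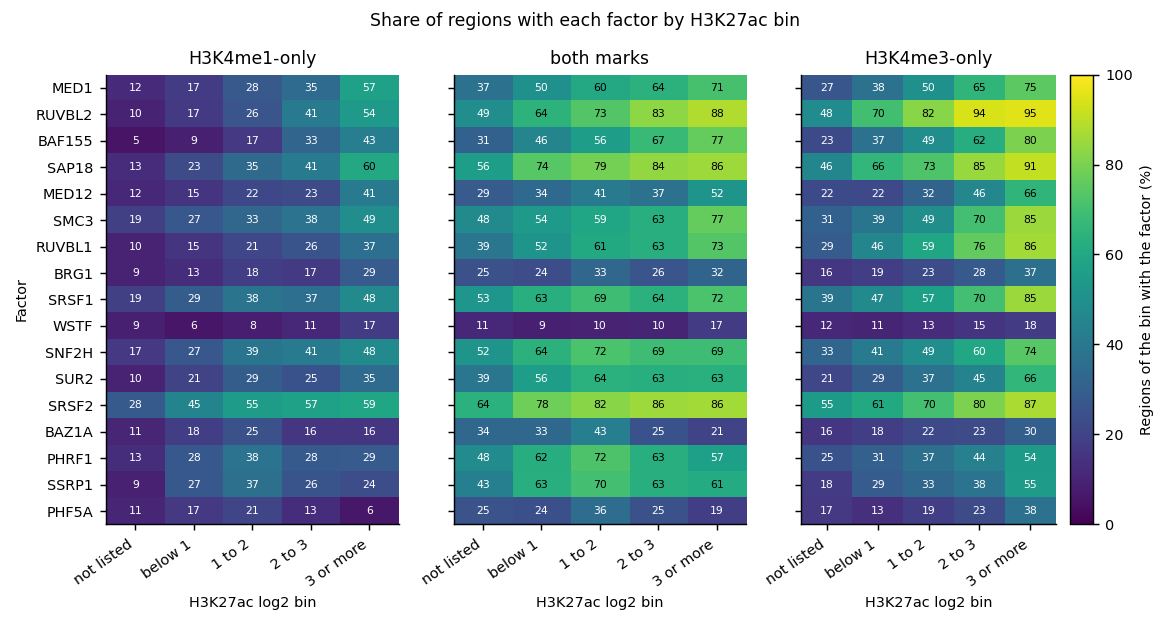
Percent of regions with each of the 17 factors (rows, ordered by the difference between the bin at 3 or more and that at 1 to 2 at H3K4me1-only regions) by H3K27ac log2 bin (columns), for each H3K4 class. MED1, RUVBL2, BAF155 and SAP18 head the H3K4me1-only panel, PHF5A, SSRP1, PHRF1 and BAZ1A are lower at 3 or more there, and every factor is higher at 3 or more than at 1 to 2 with H3K4me3 only.

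H3K27ac at H3K4me1-only regions also went with the kind of H3K4me3-bearing region nearest to them. The median distance to such a region was 10.6 kb with and 16.7 kb without listed H3K27ac. Where the nearest one had both marks, H3K27ac was listed at 67.4% of regions under 2 kb away, 63.9% from 2 to 5 kb, 60.7% from 5 to 10 kb, 51.1% from 10 to 50 kb and 34.1% at 50 kb or more. Where it had H3K4me3 only, the shares were 33.0%, 35.4%, 35.8%, 34.2% and 30.2%. Within 10 kb the contrast was 63.5% (62.6 to 64.3) of 11457 regions near both marks against 35.04% (33.8 to 36.3) of 5988 near H3K4me3 only. The regions near both marks also had more factors, 4.20 against 2.61 on average. At widths of 1000 to 2000 bp the shares were 68.2% and 37.1%. These distances were looked at after the other results, no region overlaps another and neighbours lie at least 1001 bp apart. The part of factor number in this difference was not tested.

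The acetylation of the neighbour itself was then compared. Within 10 kb of a region with both marks, H3K27ac was listed at 43.9% of H3K4me1-only regions where the neighbour had none listed, then at 54.5%, 66.0%, 71.0% and 80.9% (74.0 to 86.3) over the neighbour's bins from below 1 to 3 or more. The median log2 of the listed ones was 1.12, 1.12, 1.23, 1.38 and 1.72. Near H3K4me3-only regions the shares were 30.8%, 36.3%, 37.7%, 33.0% and 33.2%, without an order, and the medians were 1.11, 1.15, 1.17, 1.22 and 1.27.

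The deposited lists of active and poised enhancers, both drawn from H3K4me1-only regions, are split by H3K27ac itself. All 12492 regions of the active list had a log2 of at least 1.00001, and the highest value among the 19567 poised regions was 0.999969. H3K27ac was still listed at 4722 of the poised regions (24.1%), with a median of 0.87. A further 9760 H3K4me1-only regions are in neither list and had 0.149 factors on average. Of these, 1319 had a log2 of 1 or more, which is 9.55% of the 13811 H3K4me1-only regions at that level, and their highest value was 2.76. H3K4me1-only regions outside both lists thus included acetylated ones, none of them at 3 or more. They held few of the 17 factors, against means of 5.41 in the active and 3.45 in the poised list. A mean of 0.149 means that most regions in neither list had none of the 17 factors. In the whole H3K4me1-only class 8595 regions had none, and no such region reached a log2 of 3. Whether the lists were drawn with regard to factors was not tested. The low factor number outside them, and the lack of values at 3 or more, may thus follow from how the lists were made.

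The last comparison set H3K27ac in 129/Ola cells beside H3K4 methylation in R1 cells, each region being given the R1 peak that overlaps it most. It shows whether regions that differ in acetylation also differ in what was left of H3K4 methylation without MLL3/4 activity. Acetylated regions more often overlapped a peak in R1 cells, where 1 bp of overlap was enough. They were also wider. H3K4me1-only regions had a median width of 413 bp where H3K27ac was not listed. It was 720 bp from 1 to 2, 1194 bp from 2 to 3 and 668 bp at 3 or more. The part of width in the following shares was not tested. An R1 H3K4me1 peak overlapped 63 of 63 H3K4me1-only regions at 3 or more (100%, 94.3 to 100), against 63.6% of those without listed H3K27ac. For H3K4me2 this was 96.8% against 33.8%. R1 H3K4me3 peaks overlapped 11.9% without listed H3K27ac, 14.4% below 1, 20.5% from 1 to 2, 55.3% from 2 to 3 and 71.4% (59.3 to 81.1) at 3 or more. Regions without H3K4me3 in the 129/Ola table thus often had an H3K4me3 peak in R1 cells where H3K27ac was high.

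At H3K4me1-only regions the H3K4me1 ratio between the R1 lines differed little with the H3K27ac level. The log2 ratio of the fold enrichments, catalytic-dead over wild-type, had medians of -0.66, -0.63, -0.73, -0.63 and -0.61 over the bins from not listed to 3 or more. At 3 or more the median H3K4me1 fold enrichment was 2.38 in catalytic-dead and 3.61 in wild-type cells, and without listed H3K27ac it was 2.02 and 3.09. Most of these peaks were distal, that is away from promoters in the deposited grouping. At the smaller number of proximal peaks the H3K4me1 medians were -0.02, -0.32, -0.40, -0.39 and -0.44, the last over 9 regions. H3K4me2 was different over all peaks, with medians of -0.66, -0.66, -0.96, -1.13 and -1.16. At 3 or more its fold enrichment was 2.79 in catalytic-dead and 5.89 in wild-type cells, against 2.60 and 4.14 without listed H3K27ac. The wild-type H3K4me2 value enters this ratio and was highest at a log2 of 2 or more, and its part was not tested. The share of peaks at least 2-fold lower in catalytic-dead cells was 57.4% at 3 or more against 38.6% without listed H3K27ac for H3K4me2, and 31.7% against 38.0% for H3K4me1.

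Regions with both marks showed an ordered difference in H3K4me1 as well. The median log2 ratio was 0.71 without listed H3K27ac, 0.73 below 1, 0.52 from 1 to 2, 0.23 from 2 to 3 and -0.08 at 3 or more. At 3 or more the median fold enrichment was 3.58 in catalytic-dead and 3.59 in wild-type cells, and without listed H3K27ac it was 4.25 and 2.74. H3K4me2 gave 0.24, 0.23, 0.12, -0.11 and -0.54. Distal peaks were 77.9% of the H3K4me1 peaks at 3 or more, against 54.7% of those without listed H3K27ac. Within distal peaks alone the H3K4me1 ratios were 0.52, 0.54, 0.23, 0.04 and -0.14, and within proximal peaks 0.90, 0.87, 0.78, 0.52 and 0.28, the last over 30 regions. The wild-type value enters the ratio, and its part was not tested. For H3K4me1 it was itself higher at more acetylated regions. For H3K4me2 it was not ordered, with medians of 6.75, 8.26, 7.78, 8.23 and 7.56 over the bins.

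H3K4me3-only regions had H3K4me1 ratios of 1.11, 1.13, 1.09, 1.03 and 0.97 over the bins, so the median was well above 0 in every bin. The share of peaks with a catalytic-dead value 2-fold or more above the wild-type one was 62.4%, 64.3%, 60.3%, 53.7% and 45.0% over the same bins. Their H3K4me2 ratios were 0.29, 0.29, 0.25, 0.20 and 0.17. H3K4me3 ratios were close to 0 in every class and bin, from -0.06 to 0.09. The quartiles of the ratios within a bin were wide at H3K4me1-only regions, for example -1.42 to 0.05 for H3K4me1 without listed H3K27ac. Each line has 1 value per peak, so neither the scale between the lines nor the spread between libraries is known, and H3K27ac of the R1 lines was not analysed here.

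**Figure D5:**
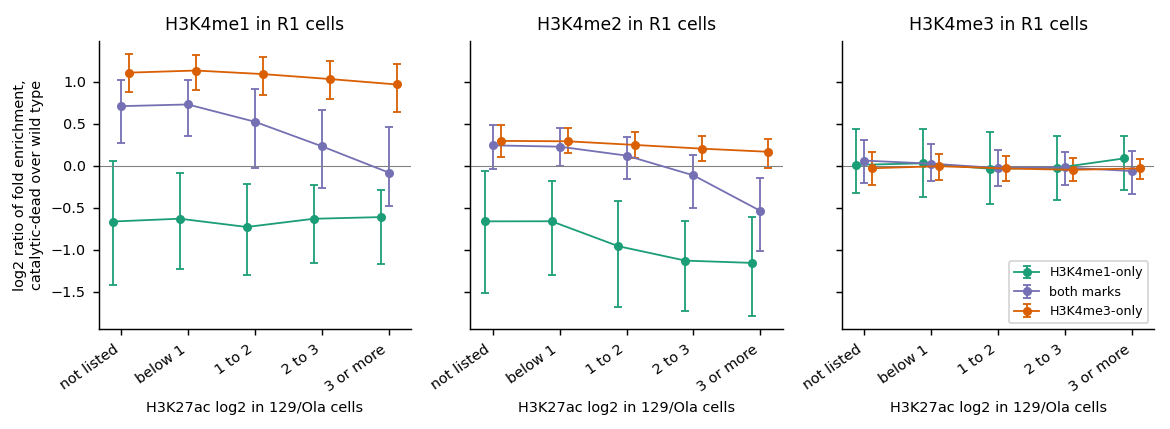
Median log2 ratio of fold enrichment, catalytic-dead over wild-type R1 cells (vertical bars, quartiles over regions), for H3K4me1, H3K4me2 and H3K4me3 peaks, by H3K27ac log2 bin of the overlapping 129/Ola region and H3K4 class. The H3K4me1 ratio with both marks runs from 0.71 to -0.08 over the bins, while that of H3K4me1-only regions stays between -0.73 and -0.61.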

How the data were processed

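The authors deposited region tables of 129/Ola cells with 1 log2 enrichment per region and name. The deposited values of H3K4me1 and H3K4me3 only mark presence. The deposited R1 peak tables hold a fold enrichment (ratio) in each line, per the file headers. Per the submitters' processing notes the build was mm9, with Bowtie, Picard and MACS2 (129/Ola), and with deepTools 2.5.1 and 2.5.3, MACS2 2.1.0.20150731, BWA 0.7.13-r1126 and Picard 2.11.0 (R1). No source used here states the background of the enrichment or the pooling of libraries. Of 31 names, 11 match no 129/Ola library in the labels and were not used. Of the 17 factors, 14 have 2 libraries, 2 have 3 and 1 has 1.

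Regions were classed by presence of H3K4me1 and H3K4me3 and binned by H3K27ac at log2 values of 1, 2 and 3. R1 peaks were joined by the largest overlap, at least 1 bp. Score columns of the R1 tables were out of step with positions: on chromosomes 2 to 19 the mean rho of peak width with wild-type H3K4me3 enrichment was -0.00380 as deposited and 0.687 with values laid out in number order of chromosomes, against 0.674 on chromosome 1. For H3K4me2 the same 3 values were 0.00546, 0.675 and 0.661. For H3K4me1 they were 0.00253, 0.253 and 0.215, a weaker contrast. The restored order was used for all 3 marks. Positions, classes and H3K27ac values do not depend on it. A value of 0 was replaced by the lowest positive one divided by 2. Named regions are the 3 highest in H3K27ac and the 3 widest without it per class, and all 17 factors were described. The members and lists were chosen with earlier results of these data known. Python 3.11.15, pandas 2.3.3, numpy 2.4.6 and scipy 1.17.1 were used. The code was checked on simulated data. No gene names or sequences were assigned, because no annotation of build mm9 was used here.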

Additional observations from a re-analysis of the deposited data

How the results depend on the processing

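Besides those of single factors, 91 values were recomputed: 8 changed sign, 49 moved by more than counting error and 34 did not. They are given in the order H3K4me1-only, both marks, H3K4me3-only. The share listed was 33.0, 72.9 and 81.4% at a log2 of 1 or more, 3.26, 10.3 and 33.1% at 2 or more, 48.6, 86.8 and 83.9% when standardised to the widths of all regions, where both marks stood above H3K4me3-only, and 54.2, 91.4 and 92.7% at regions of at least 500 bp. Medians were 1.34, 1.41 and 1.83 among regions at 1 or more, and 1.17 and 1.23 for the first 2 classes at 1000 to 2000 bp. The share of acetylated regions at 3 or more, 0.324, 0.891 and 6.07%, was 1.80, 3.83 and 17.6% with the edge at 2.5, and 0.166, 0.592 and 5.46% at 1000 to 2000 bp. The difference in mean factor number at 1 to 2 minus not listed (2.74, 2.95 and 2.77) was 1.10, 2.06 and 1.24 with factors counted at a log2 of 1 or more, and 3.11, 4.14 and 4.02 at 1000 to 2000 bp. At 3 or more minus not listed (4.34, 3.37 and 6.45) it was 1.88, 2.31 and 5.03, and, for the last 2 classes at that width, 4.08 and 6.93. The 13 factors of H3K4me1-only regions stayed 13 in number with factors at 1 or more, and no factor changed direction, but 7 of 17 single differences moved by more than counting error: those of MED1, RUVBL2, BAF155, SAP18, MED12 and PHF5A became smaller (PHF5A -6.24 against -14.4 points) and that of SNF2H larger.

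For the R1 median log2 ratio at H3K27ac 2 or more minus not listed, H3K4me1 differences (0.033, -0.49 and -0.085) were -0.022, -0.00070 and 0.0077 in the deposited layout, which pairs most positions with values of other peaks if the restored order is right. For H3K4me2 (-0.47, -0.38 and -0.098) that layout gave 0.039, -0.089 and 0.014, and for H3K4me3 with both marks (-0.086) -0.023. On chromosome 1 alone, H3K4me1 with H3K4me3 only gave -0.18, H3K4me2 at H3K4me1-only regions -0.56, and H3K4me3 at H3K4me1-only (-0.032) and H3K4me3-only regions (-0.016) reversed to 0.10 and 0.022. With peaks required to overlap 50% of the region, H3K4me2 at H3K4me1-only regions gave -0.54. Distal and proximal peaks, chosen after seeing the data, gave -0.39 and -0.78 for H3K4me2 at H3K4me1-only regions and -0.49 and -0.29 with both marks. H3K4me2 with H3K4me3 only gave -0.16 at distal peaks. At proximal peaks H3K4me1 gave -0.39 with both marks and reversed to -0.41 at H3K4me1-only regions. At distal peaks H3K4me3 gave -0.050 with both marks and reversed to 0.047 with H3K4me3 only. The neighbour contrast of 28.4 points within 10 kb was 23.7 at a log2 of 1 or more and 31.1 at 1000 to 2000 bp, both also chosen after seeing the data. The cause of these shifts was not tested. The count over all 31 names was not run, because 11 of them match no library. No paired analysis was possible because the tables hold 1 value per mark or factor and no replicate. Depth is unknown, so a value below the listing limit cannot be read as absence.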

Other observations

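The X chromosome stood apart in H3K27ac and in the make-up of its regions. It holds 643 of the regions, of which 62.4% had H3K4me3 only, against 10.5% on autosomes. H3K27ac was listed at 82.6% of X regions (95% Wilson interval 79.5 to 85.3) and 62.4% of autosomal ones, with medians of 1.90 and 1.29 among listed regions. These values over all regions include the difference in make-up, whose part was not tested. With both marks the share listed was lower on the X, 82.7% (76.0 to 87.8) against 88.3%. With H3K4me3 only it was 93.3% (90.4 to 95.3) against 89.7%. Within H3K4me3-only regions the median was 2.12 on the X (374 listed regions) and 1.72 on autosomes (6326), and 14.2% against 4.96% reached a log2 of 3 or more. X regions of this class were narrower, 925 bp against 1544 bp in median width. At widths of 1000 to 2000 bp the difference in median was 0.51, against 0.41 over all widths. With both marks the medians were 1.36 on the X and 1.31 on autosomes. At H3K4me1-only regions they were 1.69 over 28 listed X regions and 1.19 on autosomes, while the share listed was 32.6% against 46.5%.

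Median log2 values of the 17 factors were also compared between the X and autosomes. Over all regions, where the make-up differs too, 17 of 17 were higher on the X, by 0.034 to 0.16, against 0.61 for H3K27ac. Within H3K4me3-only regions 16 of 17 factors were higher, by at most 0.14, against 0.41 for H3K27ac. With both marks the order was the other way, with 17 of 17 factors higher by 0.028 to 0.31 (median 0.10) and H3K27ac by 0.043. At H3K4me1-only regions the differences of the factors ran from -0.090 to 0.27, with 14 of 17 above 0, against 0.50 for H3K27ac. A single value per region gives no error between libraries, the comparison was chosen after seeing the data, and its cause was not tested.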
